A study of Mus musculus with 384 samples.

Results

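Neutrophils with transcripts of Csf1r, the gene for the receptor of colony-stimulating factor 1, were compared with neutrophils in which Csf1r was listed at 0. Of 326 cells with expression values, 285 were taken as neutrophils because the summed level of 10 neutrophil genes (S100a8, S100a9, Retnlg, Ngp, Camp, Ltf, Mmp8, Mmp9, Csf3r and Cxcr2) reached at least 20000 TPM, a length-corrected share of the transcripts of a cell. Of these 285, 77 were chosen by a Csf1r level above 0 TPM and are called Csf1r-positive. The other 208 are called Csf1r-negative, and the 41 cells below the neutrophil threshold serve as a reference. Csf1r, the 10 neutrophil genes and Lcn2 were used in the choice of cells or in the adjustment, so their values are given as a description with no test.

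All cells came from the spinal cord of mice labelled as Optn KO, a knockout of the gene for optineurin, an adaptor protein of autophagy and NF-kB signalling. They had been stained for CD45, CD11b and CX3CR1, sorted one by one into plates, and prepared by SmartSeq2, which reads full-length cDNA and has no molecular identifiers. The 2 replicates, named Optn KO-1 (plates 1 and 2) and Optn KO-2 (plates 3 and 4) in the labels, are not stated to be separate mice, and the spread between them may be technical. No other genotype, treatment or age was compared, so every value describes Optn KO cells, and the series title calls the sorted cells microglia although these 285 met the neutrophil threshold. Optn itself was listed at 0 in every cell, which allows a share of up to 3.90% of Csf1r-positive and 1.44% of Csf1r-negative neutrophils with a value above 0.

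CSF1R is a receptor tyrosine kinase that binds CSF1 and interleukin-34 and keeps monocytes, macrophages and microglia alive. It is commonly used as a marker of those cells, while neutrophils depend on CSF3R, the receptor of granulocyte colony-stimulating factor. Csf1r reporter transgenes are nevertheless known to be active in granulocytes. Neutrophils make their granule proteins in the bone marrow, where transcripts such as Camp, Ngp and Ltf are abundant, and lose these transcripts as they mature. The comparison asked whether monocyte genes come along with Csf1r in a neutrophil, and whether anything besides the stage of maturation differs.

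Csf1r-positive cells made up 29.2% of the 130 neutrophils of replicate 1 (38 cells, exact 95% binomial interval 21.6% to 37.8%) and 25.2% of the 155 neutrophils of replicate 2 (39 cells, 18.5% to 32.8%). The mean share was 27.2% ± 2.88 (SD, n = 2), and the 4 plates gave 25.4%, 33.3%, 24.7% and 25.6%. The replicates thus had overlapping intervals, which cover counting error only. Among the 41 cells outside the neutrophils, 32 had Csf1r above 0 (78.0%).

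The level of Csf1r in the positive neutrophils overlapped that in the other cells. Its median lay below theirs in replicate 1 and above it in replicate 2. In the positive neutrophils the level ran from 0.56 to 2196.24 TPM with a median of 340.79 TPM (224.855 in replicate 1 and 416.24 in replicate 2). The medians on plates 1 to 4 were 220.13, 304.61, 481.18 and 387.8 TPM. Outside the neutrophils, the 32 cells above 0 ran from 56.8 to 4031.88 TPM with a median of 418.11 TPM (456.54 in replicate 1 and 363.23 in replicate 2). The 2 ranges overlap over most of their length, and the neutrophils alone had a set of very low values. These were 12 cells of at most 3.52 TPM, 5 in replicate 1 and 7 in replicate 2, and the next cell had 12.7 TPM. At the border of the class there is therefore a run of cells just above 0, and 65 of the 77 cells had at least 10 TPM, 55 at least 100 TPM and 6 at least 1000 TPM. At the neutrophil threshold the lowest sums inside were 20455 and 20471.1 TPM and the highest sum outside was 16515.7 TPM. Only 14 of the 285 neutrophils had a sum under 50000 TPM, 5 of them Csf1r-positive.

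**Figure D1:**
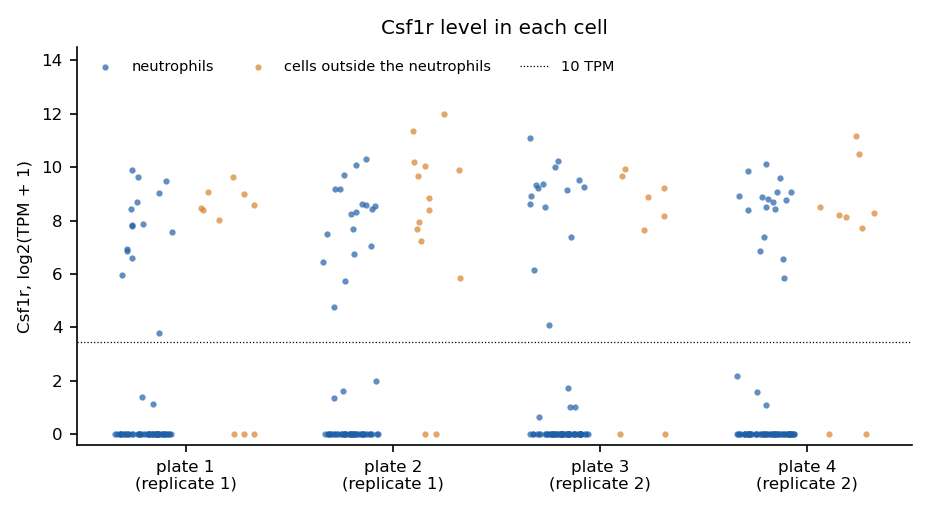
Csf1r level of every cell as log2(TPM + 1), by plate, for neutrophils (blue) and cells outside the neutrophils (orange). Each point is 1 cell and the dotted line marks 10 TPM. Most positive neutrophils lie at the height of the orange cells, and 12 positive neutrophils lie below the line.

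Csf1r-positive neutrophils were mostly cells with few granule transcripts. The mean log2(TPM + 1) of Camp, Ngp, Ltf and Lcn2, here called the granule mean, had a median of 5.67 in positive and 13.88 in negative neutrophils. It was 5.81 against 14.13 in replicate 1 and 5.51 against 13.56 in replicate 2. Both classes spanned nearly the full scale (0 to 15.60 and 0 to 15.81), so the classes overlap and a positive cell can be rich in granule transcripts. When the neutrophils of each plate were divided by the granule mean into 3 groups of equal size, 44 of 95 cells were positive in the lowest group (46.3%), 27 of 94 in the middle group (28.7%) and 6 of 96 in the highest group (6.25%). The lowest group had a higher share than the highest on each plate, with 45.5%, 52.4%, 38.5% and 50% against 4.35%, 14.3%, 0% and 7.69%. The 0% on plate 3 stands for 0 of 26 cells, for which the exact interval reaches 13.2%. In the middle group the plates gave 27.3%, 33.3%, 36.0% and 19.2%, and plate 3 was the one where the lowest and the middle group were close.

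**Figure D2:**
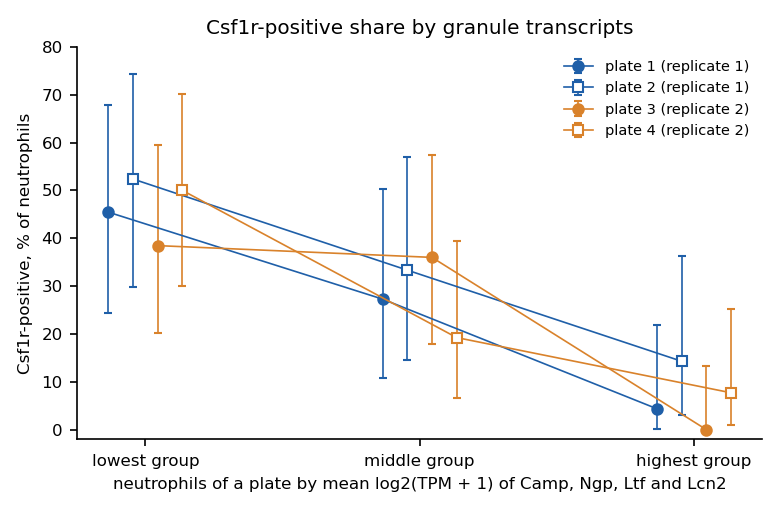
Share of neutrophils that were Csf1r-positive (y axis, percent) in the lowest, middle and highest group of each plate by the granule mean (x axis). Points are plates, blue for replicate 1 and orange for replicate 2, and bars are exact 95% binomial intervals. All 4 plates have their smallest share in the highest group, from 0% to 14.3%.

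Dividing cells were seldom Csf1r-positive. Of 21 neutrophils with 5 or more of 16 proliferation genes above 0, 1 was positive, against 76 of the other 264. The highest granule group also had a low share, 6 of 96 (6.25%), and whether division matters beside the granule mean was not tested. Within the positive cells the Csf1r level itself went weakly against the granule mean, with Spearman rho of -0.28 over 38 cells of replicate 1 and -0.26 over 39 cells of replicate 2. Against the number of genes detected, rho was -0.19 and -0.48. These are descriptions across cells that share plates and the TPM scale, in which a gene's value falls when the cell's other transcripts take a larger share. Positive neutrophils also had fewer genes above 0, with a median of 1480 (922 to 2348) against 1727 (675 to 5150), 1497 against 1842 in replicate 1 and 1432 against 1604.5 in replicate 2. The share of TPM on Rn45s, the ribosomal RNA precursor, was close in both classes (medians of 3.62% and 3.60%).

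Values of some genes used by the selection follow as a description. Camp, Ngp and Ltf are part of the granule mean, so their averages restate its difference between the classes. Camp, the cathelicidin of specific granules, averaged 3475 and 3087 TPM in positive neutrophils of replicates 1 and 2, against 19617 and 16137 TPM in negative ones. Ngp, another granule protein, averaged 11052 and 13750 TPM against 46306 and 46789 TPM, and Ltf (lactoferrin) 2970 and 3878 TPM against 14632 and 14726 TPM. For each of these 3 genes both positive averages lay below both negative ones. The calprotectin gene S100a8 was above 0 in every cell of both classes, at 56150 and 53810 TPM against 67102 and 64567 TPM. Genes of circulating neutrophils had the opposite order. Csf3r averaged 1768 and 2078 TPM against 871 and 1088 TPM, Cxcr2, the chemokine receptor used to leave the marrow, 1691 and 1667 TPM against 1156 and 1177 TPM, and Retnlg 27279 and 23883 TPM against 20295 and 19784 TPM. Csf3r was above 0 in 97.4% of the positive cells of each replicate, but it belongs to the genes whose sum chose these cells as neutrophils.

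Because the classes differed this much in granule stage and in genes detected, the test across all genes compared them within each plate with both quantities as covariates, and then averaged the plates of a replicate. Differences are of mean log2(TPM + 1), positive minus negative, which can understate changes of genes with low values. They also depend on how many cells are at 0, so they are not the log2 ratio of mean TPM. Without covariates Il1b had 6.01 in this measure and 1.32 as log2 of mean TPM + 1. The gap went the other way for Coq4, with 1.06 and 2.54. After this adjustment, 0 of 4003 genes passed at an adjusted p under 0.05 (0% called, limma with Benjamini-Hochberg adjustment), and adjusted p went down to 0.167. Before adjustment for multiple tests, 256 genes had p under 0.05. A difference of a named gene in this comparison is therefore a value and not a call.

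The largest positive value among the 6 genes with the smallest p in that direction was that of Il1b, the precursor of interleukin-1 beta (chromosome 2, 129364570 to 129371139, minus strand, GRCm38). It was above 0 in 81.6% and 92.3% of positive neutrophils of replicates 1 and 2, against 50% and 48.3% of negative ones, and averaged 10446 and 13413 TPM against 4427 and 5003 TPM. Both positive averages lay above both negative ones. Here and below, how many of all genes tested separate in this way was not counted, so such order is a description. With both covariates the difference was 1.69 in replicate 1 and 2.74 in replicate 2, a mean of 2.21 (limma, SE 0.46, adjusted p = 0.167). The plates gave 2.77, 0.60, 3.76 and 1.72, the same sign on all 4. Without covariates the Il1b difference was 6.01, so most of it went with the granule mean and the number of genes detected.

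The other 5 genes on that side are also used by neutrophils, apart from Coq4, which acts in ubiquinone synthesis. G0s2 (chromosome 1, 193272161 to 193273217, minus strand), whose protein blocks the lipase of fat droplets, averaged 3823 and 2666 TPM in positive and 3230 and 2416 TPM in negative neutrophils. Its averages overlap between classes, and its difference with both covariates was 1.14 and 1.86 in the replicates (mean 1.50, limma, SE 0.34, adjusted p = 0.167), larger than the 0.84 without covariates. Clec4e encodes Mincle, a receptor for fungal and mycobacterial glycolipids. It had 1065 and 1592 TPM against 735 and 1169 TPM, and a difference of 1.63 and 1.56 (mean 1.59, limma, adjusted p = 0.335), but -0.08 on plate 2. Trem1, a receptor that amplifies inflammatory signals, had 1992 and 1810 TPM against 1012 and 928 TPM and a difference of 1.43 (limma, adjusted p = 0.457). The chemokine gene Ccl6 had 4800 and 4422 TPM against 2352 and 2102 TPM and a difference of 1.54 (limma, adjusted p = 0.468). For both, the 2 positive averages lay above the 2 negative ones. Coq4, above 0 in 16 of 77 and 19 of 208 cells, had 1.21.

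On the other side the gene with the largest value was H2afz, which encodes the histone variant H2A.Z (chromosome 3, 137864487 to 137866922, plus strand). It was above 0 in 39.5% and 30.8% of positive against 75.0% and 68.1% of negative neutrophils, and averaged 394 and 263 TPM against 1330 and 1351 TPM. The classes did not overlap in these averages, and the difference with both covariates was -1.95 and -2.63 (mean -2.29, limma, SE 0.51, adjusted p = 0.167). Without covariates the H2afz difference was -4.22. Myl6, a light chain of non-muscle myosin, was above 0 in 73.7% and 66.7% against 96.7% and 90.5% of cells. Its averages were 1079 and 1076 TPM against 1703 and 1473 TPM, and its difference was -1.77 (limma, SE 0.38, adjusted p = 0.167), within -1.45 and -2.22 on the 4 plates. Its 4 plate values thus lay close together, and without covariates its difference was -2.60. The remaining values were -1.85 for Edf1, a transcriptional coactivator, -1.57 for Cd68, a lysosomal glycoprotein of macrophages, -1.11 for 2410006H16Rik and -0.99 for Brd1, a chromatin reader. Brd1 and 2410006H16Rik were sparse, above 0 in 3 and 2 of the 77 positive cells and in 39 and 34 of the 208 negative cells.

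**Figure D3:**
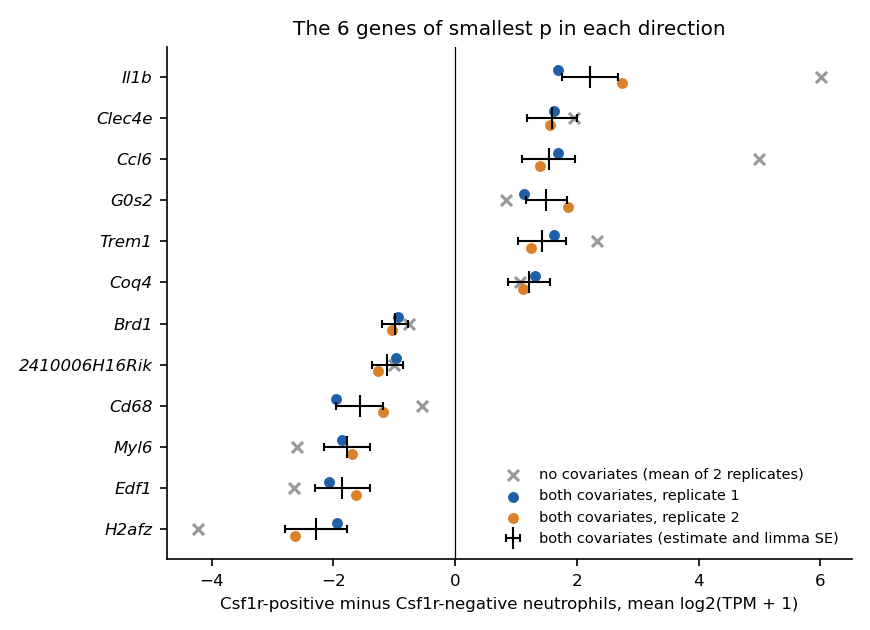
Difference between Csf1r-positive and Csf1r-negative neutrophils in mean log2(TPM + 1) for the 12 genes named by p value with both covariates. Blue and orange points are replicates 1 and 2, black bars the estimate with its limma SE, and grey crosses the value without covariates. The choice by p value favours genes whose replicates are alike. For Il1b, Ccl6 and H2afz the cross lies far outside the adjusted values.

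How many genes passed with both covariates depended on the settings. Of 20 settings with both covariates, including the one above, 10 called at least 1 gene, between 4 and 12 genes each, and 17 genes were called in at least 1 of them. Il1b and Myl6 were called in 10, Brd1 in 8, Edf1, G0s2 and H2afz in 7 each and 2410006H16Rik in 6. With 1 residual degree of freedom limma leans on a variance prior taken from all genes. Of the 11 settings in which this prior exceeded 70 degrees of freedom, 10 called a gene, and of the 9 with a smaller prior, 22.27 in the comparison above, 0 did.

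Monocyte genes were the main question. Of 22 classical monocyte genes, 4 were frequent enough in neutrophils to be tested, 0 passed, and their median difference with both covariates was 0.18 (0.21 in replicate 1 and 0.35 in replicate 2), beside 0.00 over all 4003 genes. Lgals3 (galectin-3) had 0.36, Mpeg1 (perforin-2) 0.20, Ly6c2 (the Ly6C antigen) 0.16 and Tgfbi, a secreted matrix protein, 0.14. In each of these genes the 2 replicates differed in sign. Ly6c2, for example, had 0.78 and -0.46, from 1510 and 841 TPM in positive against 2333 and 2078 TPM in negative neutrophils (limma, adjusted p = 0.978). Reads of Ly6c2 can be split with its near-identical copy Ly6c1, so its values are uncertain. Its positive averages both lay below the negative ones, and the sign of its difference changed with the covariates: without them it was -2.72 (limma, adjusted p = 0.000311). Without covariates, 1 of the 4 genes tested was thus lower and 1 was higher, where 9.77% of all genes tested were lower and 2.5% higher. The higher gene, Tgfbi, with 682 and 669 TPM in positive against 416 and 382 TPM in negative neutrophils, rose by 2.23 (limma, adjusted p = 0.00586), and its positive averages both lay above the negative ones. The list is carried here by genes that neutrophils use too, and the test says nothing of the 18 members below the filter.

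Those 18 members include most genes that define monocytes. They fell below a filter on level and frequency in neutrophils, so low values there beside the other cells follow from that filter. Their counts describe how they were spread over the 2 neutrophil classes. Ccr2, the chemokine receptor by which monocytes leave the marrow, was above 0 in 6 of 77 positive and 10 of 208 negative neutrophils, against 28 of the 41 other cells. Its mean was 0.251 and 0.0659 TPM in positive neutrophils of the 2 replicates, against 308 and 488 TPM in the other cells. F13a1 (a coagulation factor subunit) was above 0 in 1, 1 and 28 cells of the 3 sets, and Irf8, a transcription factor needed for monocytes, in 3, 1 and 25. Klf4, a transcription factor of the same lineage, was above 0 in 1, 2 and 15, and Ctss (cathepsin S) in 5, 5 and 31. S100a4, Fcgr1 and Vcan were at 0 in all 285 neutrophils and above 0 in 26, 5 and 7 of the other cells. Ms4a6c was above 0 in 13, 28 and 33 cells, but at means of 0.872 and 0.504 TPM in positive neutrophils against 480 and 674 TPM outside. Fn1 (fibronectin) was above 0 in 6 positive and 0 negative neutrophils, at means of 0.0263 and 0.168 TPM, and was chosen for mention after its values were seen. Cx3cr1, the gene behind the third stain and a marker of non-classical monocytes, was above 0 in 5, 15 and 19 cells.

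**Figure D4:**
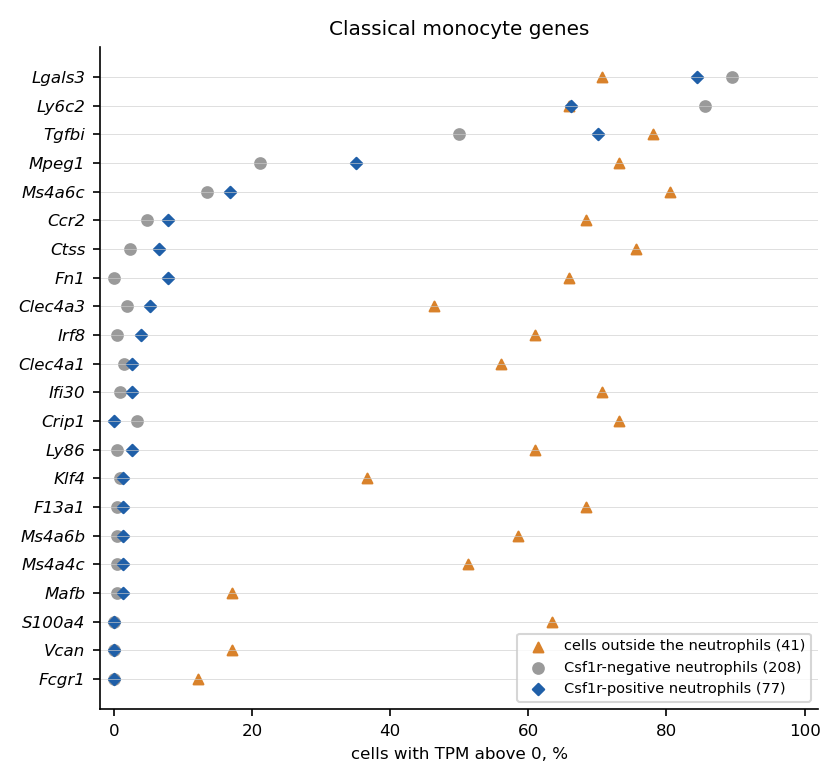
Share of cells with TPM above 0 (x axis, percent) for the 22 classical monocyte genes (y axis) in Csf1r-positive neutrophils (blue), Csf1r-negative neutrophils (grey) and cells outside the neutrophils (orange). For all genes but Lgals3, Ly6c2, Tgfbi, Mpeg1 and Ms4a6c both neutrophil classes lie below 10%. These 17 genes were set apart for being rare in neutrophils, so low shares there follow from that choice. The other cells reach up to 75.6% for these 17 genes.

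Over all 22 genes, 3 or more were above 0 in 51 of 77 positive (66.2%), 122 of 208 negative (58.7%) and 36 of 41 other cells (87.8%). Their summed level averaged 3034, 3702 and 16487 TPM in the 3 sets, so both neutrophil classes carried transcripts of the list. Of the 22 genes, 17 were above 0 in under 10% of neutrophils. They were picked for being rare in neutrophils, so their low share there beside the other cells follows from that choice, and their counts describe how they were spread over the 2 neutrophil classes. At least 1 of the 17 was above 0 in 17 of 77 positive (22.1%), 32 of 208 negative (15.4%) and 36 of 41 other cells (87.8%). Of the positive neutrophils, 60 had Csf1r with all 17 genes at 0, and their median Csf1r level was 344.135 TPM. Of the 32 other cells with Csf1r, 3 had all 17 at 0. The summed level of the 17 genes averaged 99.6 TPM in positive and 48.0 TPM in negative neutrophils. It was 47.3 against 68.8 TPM in replicate 1 and 150.5 against 31.6 TPM in replicate 2, so the replicates differed in direction. At least 3 of the 17 genes were above 0 in 5 positive neutrophils (6.49%, 1 in replicate 1 and 4 in replicate 2) and 1 negative one (0.48%). No doublet caller was run, and whether these 6 were pairs of cells was not tested. Without them 0 of 4030 genes passed (limma, smallest adjusted p = 0.556, with an unadjusted p under 0.05 for 248 genes), and the median of the 4 monocyte genes tested was 0.17.

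Receptors and ligands of the colony-stimulating factors gave no call with both covariates. The receptor genes of the granulocyte-macrophage factor were frequent in both classes. Csf2ra was above 0 in 85.7% of positive and 87.5% of negative cells, with 375 and 388 TPM against 277 and 271 TPM and a difference of 0.34 (limma, adjusted p = 0.953). Csf2rb was above 0 in 70.1% and 58.7%, with 178 and 289 TPM against 106 and 135 TPM and a difference of 0.53 (adjusted p = 0.903). Csf2rb2 had 0.21. In all 3 genes the positive averages lay above the negative ones, but Csf2rb and Csf2rb2 are near-identical copies whose reads the counting could split, so their values are uncertain. Of the ligands, Csf1 was above 0 in 6 positive and 8 negative cells, and Il34, Csf2 and Csf3 were at 0 in all 285 neutrophils. Kit, the stem cell factor receptor and a tyrosine kinase related to CSF1R, was above 0 in 5 and 23.

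Of 21 genes for CSF1R signalling, 17 were tested and 0 passed with both covariates, with a median of -0.07 beside 0.00 over all genes tested. Tyrobp (DAP12), an adaptor that couples CSF1R to SYK in macrophages and serves many neutrophil receptors, was above 0 in all 77 positive cells and in 204 of 208 negative cells. It averaged 5460 and 5909 TPM against 3599 and 3540 TPM, with both positive averages above the negative ones, and had 0.48 with both covariates (limma, adjusted p = 0.825). Without covariates it rose by 0.97 (limma, adjusted p = 0.0115). It was the 1 gene of the 17 that passed in that form, where 2.5% of all genes tested were higher and 9.77% lower. Among regulators, Spi1, listed as Sfpi1, encodes PU.1, which activates Csf1r in the myeloid lineage. It had 378 and 584 TPM against 339 and 329 TPM and differences of -0.28 and 1.32 (mean 0.52, limma, adjusted p = 0.914), so its replicates differed in sign. Runx1, another activator of Csf1r, was above 0 in 5 of 77 and 34 of 208 cells and had -0.59 (adjusted p = 0.721). Cebpa, which acts early in the granulocyte and monocyte lineage, was above 0 in 2 and 6 cells.

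Without covariates, 100 genes were higher (2.5% of those tested) and 391 lower (9.77%) in positive neutrophils (limma, adjusted p under 0.05), with a median of -0.25 over all genes. The classes differ in granule mean and in genes detected here, so a difference that goes with Csf1r and one that goes with either of these cannot be told apart in this form. Of the 3 early granule genes tested, made in precursors, all 3 fell and their median was -3.48. Chi3l3, a chitinase-like protein of precursors (Chil3 in newer naming, uncertain because of near-identical paralogs), averaged 632 and 1093 TPM against 6447 and 6455 TPM and fell by 4.99 (limma, adjusted p = 1.94e-07), with both positive averages below the negative ones. Cd63, of azurophil granules, fell by 3.48 and Fcnb (ficolin-B) by 1.66. With both covariates the 3 genes had -0.48, -1.28 and -0.30, and 0 passed.

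Of 21 mature neutrophil genes tested, 9 rose and 3 fell without covariates, with a median of 1.06. Over all genes tested, 2.5% were higher and 9.77% lower in that form. Il1b rose by 6.01 (limma, adjusted p = 1.1e-10), Ccl6 by 4.99, Clec4d, a C-type lectin partner of Mincle, by 3.59, and Trem1 and Selplg, the ligand of selectins, by 2.33 and 2.32. Ifitm1, Il1r2 and Mxd1 were among the others that rose. The 3 that fell were Cd177, a surface glycoprotein of neutrophils, by 2.85, Ltb4r1, the leukotriene B4 receptor, by 2.57 and Trem3 by 1.92. With both covariates the list's median was 0.34 (0.30 and 0.26 in the replicates), 16 of the 21 genes were above 0 and 0 passed. Cd177 then had 0.03.

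Immediate early and NF-kB genes are induced soon after a stimulus. Of 19 tested, 8 rose and 0 fell without covariates, with a median of 0.92, where 2.5% of all genes tested were higher and 9.77% lower. Dusp1, a phosphatase that turns off MAP kinases, averaged 6779 and 8596 TPM against 3222 and 4101 TPM and rose by 3.16 (limma, adjusted p = 5.36e-07). Cxcl2, a chemokine for neutrophils, rose by 2.90, Junb by 2.21 and Nlrp3 by 2.07. Both positive averages of Dusp1 lay above both negative ones. Btg2, Zfp36, Gadd45b and Fos rose as well. With both covariates the median was 0.39, but 0.70 in replicate 1 and -0.14 in replicate 2, and 0 passed.

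**Figure D5:**
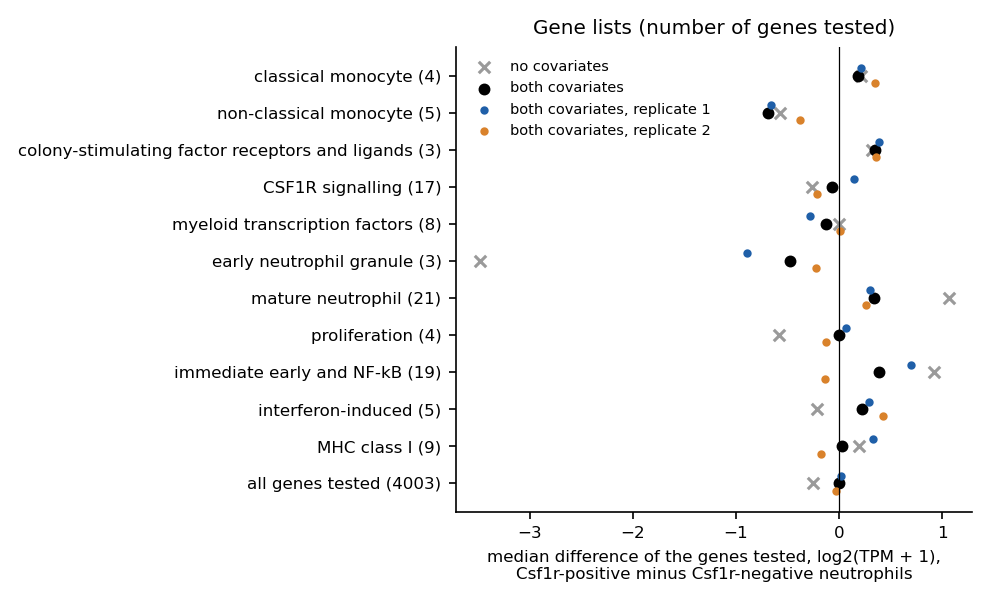
Median difference in mean log2(TPM + 1), Csf1r-positive minus Csf1r-negative neutrophils, for each gene list with at least 3 genes tested and for all genes tested. Grey crosses are without covariates, black points with both covariates, and small points the replicates. Early granule, mature neutrophil and immediate early genes lie far from 0 without covariates and nearer to it with them.

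A second look was taken within the 118 neutrophils with a granule mean under 8, of which 50 were Csf1r-positive (42.4%), and this subset was chosen after seeing the data. With both covariates, 0 genes passed among them (limma, smallest adjusted p = 0.125; 204 genes had an unadjusted p under 0.05). Il1b was then above 0 in 95.8% and 100% of positive against 87.1% and 86.5% of negative cells, at 14657 and 19492 TPM against 11822 and 14548 TPM. Its difference was 1.42, smaller than among all neutrophils. Ccl6 was above 0 in nearly all cells of both classes and had 0.34. G0s2 had 2.42 and Myl6 -3.05 (limma, adjusted p = 0.125), and Myl6 was above 0 in 62.5% and 53.8% of positive against 90.3% and 81.1% of negative cells. Myl6 was thus listed at 0 in a larger share of positive cells in both replicates of this subset. The 4 monocyte genes had a median of 0.44, with 3 of 4 above 0.

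Among the 167 neutrophils with a granule mean of at least 8, 27 were positive (16.2%). In these granule-rich cells Il1b was above 0 in 57.1% and 76.9% of positive against 31.1% and 30.4% of negative cells, and Ccl6 in 78.6% and 84.6% against 29.5% and 35.4%. H2afz was above 0 in 57.1% and 46.2% against 91.8% and 82.3%. Trem1 was above 0 in 100% and 92.3% against 75.4% and 81.0%, and Clec4e in 92.9% and 92.3% against 73.8% and 74.7%. For these 5 genes the shares of the classes did not overlap, but they did for G0s2 and Cd68. All these genes were named by their p over all neutrophils, these 167 among them, so this is no independent look. G0s2 was above 0 in 92.9% and 84.6% of positive against 93.4% and 86.1% of negative cells. Myl6 was above 0 in 13 of 14 and 12 of 13 positive cells (92.9% and 92.3%). In negative cells it was above 0 in 61 of 61 and 75 of 79 (100% and 94.9%). These shares do not overlap, but they rest on few positive cells. The averages of Myl6 were 1522 and 1805 TPM against 1945 and 1524 TPM and overlap. Cd68 was above 0 in 21.4% and 0% against 19.7% and 8.86%. The granule mean still varies inside this range, and how far it sets these shares was not tested.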

How the data were processed

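The authors deposited TPM values (abundance per transcript length, with the same total in every cell) for 23420 genes in each of 326 single cells, and 58 of the 384 cells in the labels had no column and were not analysed here. RSEM and the mm10 build were used, per the submitters' processing notes, and their versions, the aligner and the gene models used are not named in those notes. Each cell sums to 1000000 TPM, so depth is unknown and the number of genes above 0 stood in for it. A 0 can be a transcript that was missed. Exact binomial intervals and the limit for a share of 0 (3 cells of the total) cover counting error only.

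The members and gene lists were chosen with earlier results of these data known. Within each plate and gene, least squares on class, log10 genes detected (Csf1r not counted) and the granule mean gave class means of log2(TPM + 1), with a pseudocount of 1. These were averaged over the 2 plates of a replicate and compared in limma 3.58.1 under R 4.3.3. The variance prior followed the mean level and was robust to outlying genes. The model held the replicate as a block, since both classes come from the same replicate. The replicate deviations of the 2 classes had a correlation of 0.02 over genes. Genes with a mean of at least 5 TPM and above 0 in at least 10% of neutrophils were tested, without the 12 genes used by the selection. Cells were never counted as replicates.

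The genes named are the 6 with the smallest p in each direction, list members that passed (2 of them are not reported here), and members of the monocyte, colony-stimulating factor and regulator lists chosen by name. Of 254 symbols in 19 lists, 6 were found under older names (Sfpi1 and Chi3l3 among them), and Hbb-bt and Trac were not matched. Coordinates are those of GENCODE on GRCm38, the assembly of mm10. Alternatives changed the pseudocount, filter, covariates, averaging, block, Csf1r and neutrophil thresholds and cells, and 4 were added after seeing the data: granule-low cells only, TPM rescaled without the selection's genes and Rn45s, a quadratic granule term, and leaving out cells with 3 or more rare monocyte genes. Python 3.11.15 was used for all other steps.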

Additional observations from a re-analysis of the deposited data

How the results depend on the processing

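The count of genes with an adjusted p under 0.05 (limma), 0 of 4003 with both covariates, was also 0 with no replicate block, with plates as the unit and with the granule mean as the only covariate. It was 491 with no covariates, 14 with genes detected as the only covariate, 12 with genes detected in 3 classes, 10 with TPM rescaled without the selection's genes and Rn45s, 8 with a pseudocount of 0.1, 8 with neutrophil genes of at least 100000 TPM, 7 with a filter at 25% of neutrophils, 7 with a quadratic granule term, 6 without cycling neutrophils, 6 without cells rich in Rn45s, 5 with Csf1r of at least 10 TPM and 4 with 1 regression per replicate. The median of the monocyte genes tested, 0.18, was 0.29 with a pseudocount of 0.1, 0.36 with log2 of mean TPM without covariates, 0.44 in granule-low neutrophils only and -0.0582 with neutrophil genes of at least 50000 TPM. It ranged from 0.21 to 0.35 with 1 replicate left out, which leaves no test of genes. Ly6c2 was at -2.72 with no covariates (adjusted p = 0.000311) and 0.16 with both. The cause of these changes was not tested. Of the 12 named genes, Cd68 changed sign in 1 alternative, and the other 11 in 0. Unknown depth and 2 replicates limit what can be called.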

Other observations

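Other gene groups are given here beside the shares over all genes without covariates, 2.5% higher and 9.77% lower. Of 9 tested genes of MHC class I presentation, H2-D1 passed without covariates, higher in Csf1r-positive neutrophils by 0.98 (limma, adjusted p = 0.00772), and 0 passed with both covariates (median 0.03). Of 5 tested interferon-induced genes, Oasl2 passed without covariates (1.19, limma, adjusted p = 0.0481), and the median with both covariates was 0.22. Of 8 tested myeloid transcription factor genes, Cebpe, which drives the making of specific granules, fell by 1.50 without covariates (limma, adjusted p = 0.0123) and had -0.02 with them. Of 4 tested proliferation genes, 0 passed in either form, with medians of -0.59 and 0.00. Of 5 tested non-classical monocyte genes, Ear2, a ribonuclease gene, fell by 1.61 without covariates (limma, adjusted p = 0.000686), and the list's median with both covariates was -0.69. Reads of H2-D1 and of Ear2 can be split with near-identical gene copies, which makes both uncertain.

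For markers of cells other than classical monocytes, the number of cells with 3 or more markers above 0 in positive and negative neutrophils was 0 and 2 for macrophages, 0 and 1 for microglia, 2 and 1 for dendritic cells and 1 and 1 for B cells. It was 0 in both for T or NK cells, for mast cells, basophils or eosinophils, for erythroid cells or platelets, and for neural, glial or vascular cells. Non-classical monocyte genes reached 3 in 11 of 77 positive (14.3%) and 62 of 208 negative neutrophils (29.8%). Among the cells outside the neutrophils they did so in 29 of 41 (70.7%). These counts are not adjusted for the number of genes detected, which was higher in negative than in positive neutrophils. The summed level of the list averaged 960 TPM in positive and 911 TPM in negative neutrophils, with medians of 480 and 551 TPM.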
